A study of Mus musculus with 4 samples.

Results

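The oncostatin M and gp130 cytokine axis was followed here through 10 genes, found by symbol among the 32285 genes of the count matrices: the ligands Osm, Lif, Il6 and Il11, the receptor chains Osmr, Lifr, Il6ra and Il11ra1, the shared subunit Il6st, and the feedback inhibitor Socs3. All 10 had UMIs (unique molecular identifiers, each a counted transcript molecule) in both batches. Cells of the colon of C57/BL6J mice were sequenced with a 10x Genomics 3' kit in 2 batches, each a mix of 4 conditions told apart by antibody hashtags: JUP-KO mice given dextran sulfate sodium (DSS), JUP-KO mice without treatment, wild-type mice given DSS and untreated wild-type mice. JUP encodes plakoglobin, a protein of cell junctions, and DSS is a chemical that injures the colon lining. Neither the promoter or extent of the knockout nor the ages and numbers of mice are given in the sources used here.

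The hashtags are named TG_DSS, TG_WT, Ctrl_DSS and Ctrl_WT. By name, TG_WT is untreated JUP-KO and Ctrl_DSS is wild type with DSS, and by the order of antibodies in the protocol those 2 trade places. TG_DSS is JUP-KO with DSS and Ctrl_WT is untreated wild type either way, and groups are therefore called by label. Jup in epithelial-like cells was 21.8 and 84.0 UMIs per 1000000 UMIs of a sum (CPM) under TG_DSS, 77.9 and 109 CPM under TG_WT, 14.1 and 8.69 CPM under Ctrl_DSS, and 70.6 and 66.0 CPM under Ctrl_WT, in batches 1 and 2. It was lowest under Ctrl_DSS, whose name reads as wild type, and under TG_DSS, JUP-KO by either reading, the value of batch 2 lay above both Ctrl_WT values. Under TG_WT, whose name reads as JUP-KO, it was the highest of the labels in both batches. Jup thus did not bear out the names of TG_WT and Ctrl_DSS, nor the knockout name in batch 2 of TG_DSS. By the order of antibodies, the lowest label, Ctrl_DSS, would be untreated JUP-KO, and the highest, TG_WT, wild type with DSS. Which reading is right was not settled. Directions below hold for the labels, not for a genotype. In every sentence that gives a pair of values, the first is of batch 1 and the second of batch 2.

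Batches 1 and 2 held 133919905 and 95408149 UMIs, and 7156 and 6472 cells were kept. A single hashtag was called on 5511 of these cells, 7152 had none and 965 had several, and 14 cell barcodes occurred in both batches. Cells were gated on detected markers, none of which belongs to the axis. Levels and shares given below for a class with no label named use all its gated cells, including those with no hashtag or several. The gate gave 780 and 979 neutrophil-like cells and 214 and 538 macrophage and monocyte-like cells as source cells. As target cells it gave 148 and 335 fibroblast-like, 11 and 20 endothelial-like and 4812 and 2795 epithelial-like cells. A further 1405 droplets passed more than 1 gate, among them 770 that passed both the neutrophil and the epithelial gate, and were set apart as mixed.

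Cytokines of this family signal through gp130, the protein of Il6st, which pairs with a ligand-specific chain. Oncostatin M is made mainly by myeloid cells and T cells and binds gp130 with the oncostatin M receptor (Osmr). LIF uses gp130 with the LIF receptor (Lifr), and IL-6 and IL-11 first bind their own alpha chains (Il6ra and Il11ra1). The complexes activate JAK kinases and the transcription factor STAT3, which induces Socs3, and the Socs3 protein binds gp130 and dampens the signal. In inflamed intestine, oncostatin M is known for acting on stromal cells, which answer with chemokines, adhesion molecules and IL-6.

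Osm lies at chr11:4236420-4241026 on the plus strand of mm10, and Lif follows it on the same strand at chr11:4257557-4272514, 16531 bases on. Both ligand-specific chains of the Osm and Lif receptors lie on chromosome 15, Osmr at chr15:6813577-6874969 and Lifr at chr15:7090614-7197489. Upstream sequences from RefSeq (GRCm38.p6, the mm10 build) were found for 9 of the 10 genes. Each window covered the 250 bases before the start that the RefSeq table gives, which for Il11 and Socs3 lies inside the gene's outer bounds in GENCODE M21, and was searched for a STAT motif, TTCNNNGAA, and an AP-1 motif, TGANTCA. Each motif reads the same on both strands. The STAT motif was in 7.02% of 32851 such windows and, of the 9 genes, only in that of Socs3, the textbook STAT3 target. The AP-1 motif was in 6.75% of windows and in those of Il6, Il11 and Lif, the ligands other than Osm. Both are matches of letters and not shown sites. The 4 windows with a match are printed up to the first base that GENCODE M21 places in an exon of these genes, at most 200 bases each, with the motif in capitals:

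Socs3, chr11:117969452-117969616, minus strand: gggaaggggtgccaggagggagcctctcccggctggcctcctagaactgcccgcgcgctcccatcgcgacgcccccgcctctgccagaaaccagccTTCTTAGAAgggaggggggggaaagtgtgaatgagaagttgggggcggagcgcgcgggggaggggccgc

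Il6, chr5:30012864-30013063, plus strand: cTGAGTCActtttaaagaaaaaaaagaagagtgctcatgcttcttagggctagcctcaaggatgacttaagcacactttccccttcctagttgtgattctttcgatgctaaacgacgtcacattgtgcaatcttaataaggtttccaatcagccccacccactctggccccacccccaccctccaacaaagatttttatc

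Il11, chr7:4778192-4778391, minus strand: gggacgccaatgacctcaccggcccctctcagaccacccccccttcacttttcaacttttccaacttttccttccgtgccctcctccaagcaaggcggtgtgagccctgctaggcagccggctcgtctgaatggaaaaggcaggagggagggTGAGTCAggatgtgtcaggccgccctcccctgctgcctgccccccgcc

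Lif, chr11:4257318-4257517, plus strand: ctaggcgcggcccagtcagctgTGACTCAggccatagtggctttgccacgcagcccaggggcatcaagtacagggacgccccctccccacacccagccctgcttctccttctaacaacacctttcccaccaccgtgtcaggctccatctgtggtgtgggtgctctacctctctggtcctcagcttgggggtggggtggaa

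Osm, the ligand that opens the axis, was a myeloid transcript. Neutrophil-like cells held it at 402 and 414 CPM and macrophage and monocyte-like cells at 69.6 and 183 CPM. Fibroblast-like cells had 0 and 1 Osm UMIs, and endothelial-like cells had 0 in both batches, which at 3 UMIs would be 102 and 58.7 CPM. In epithelial-like cells Osm was at 0.224 and 0.522 CPM. Both myeloid classes thus held more Osm than fibroblast-like and epithelial-like cells in both batches, while the endothelial-like cells were too few to set them below the macrophage and monocyte-like level of batch 1. Barcodes of at most 100 UMIs, which sample free RNA, held Osm at 16.2 and 33.3 CPM, so that the epithelial-like level was 1.38% and 1.57% of that in free RNA.

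Thinned to 1000 UMIs per cell, 27.3% and 27.2% of neutrophil-like cells had an Osm UMI, against 5.69% and 12.1% of macrophage and monocyte-like cells. Without thinning the shares were 49.0% and 51.7%, against 18.7% and 31.2%. In epithelial-like cells the thinned share was 0.0209% and 0.0720%. Neutrophil-like cells were shallower, with a median of 2797 UMIs over both batches, against 5494 in macrophage and monocyte-like cells.

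Counts were summed per class, label and batch and compared between classes within label and batch with edgeR's quasi-likelihood test. Sums of too few cells were left out. The neutrophil-like sums tested came only from TG_DSS (599 and 510 cells) and TG_WT (15 and 265 cells). Cells with no hashtag or several were not in these sums, while the levels given by class include them. Osm was higher in neutrophil-like than in macrophage and monocyte-like cells by 2.64 in log2 units (SE 0.39), with an adjusted p of 1.6e-06. In this comparison 24.1% of 10639 genes were called higher and 27.9% lower at an adjusted p under 0.05. These values are scaled with TMM, which rests on the bulk of genes. Scaled to library totals alone, an alternative chosen after seeing the data, the median of all genes was -1.28, against -0.17 with TMM, with 1144 genes higher and 5750 lower against 2561 and 2968. Osm was still higher, by 1.67 (SE 0.37), with an adjusted p of 4.8e-04 by edgeR, and of the axis genes 1 then rose (Osm) and 6 fell. Of the 9 axis genes tested there, 2 rose (Osm and Socs3) and 5 fell (Il6st, Lifr, Il11ra1, Lif and Il6). Their median log2 fold change was -1.15, against -0.17 over all genes; Osmr enters it with 2 UMIs against 0 and is given no fold change. The calls of Lif and Il6 were lost under 4 or more of 9 alternatives each, among them DESeq2 and leaving out batch 1, and that of Il11ra1 was lost without batch 2 (adjusted p = 0.46).

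The 3 genes whose profiles over 19 class-by-batch sums of 10 cell classes were most like Osm were Lilrb4a (Pearson r 0.958), Pilra (r 0.944) and Lilra6 (r 0.934), all immune receptors of myeloid cells. The sums share libraries, and the correlations are a description.

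**Figure D1:**
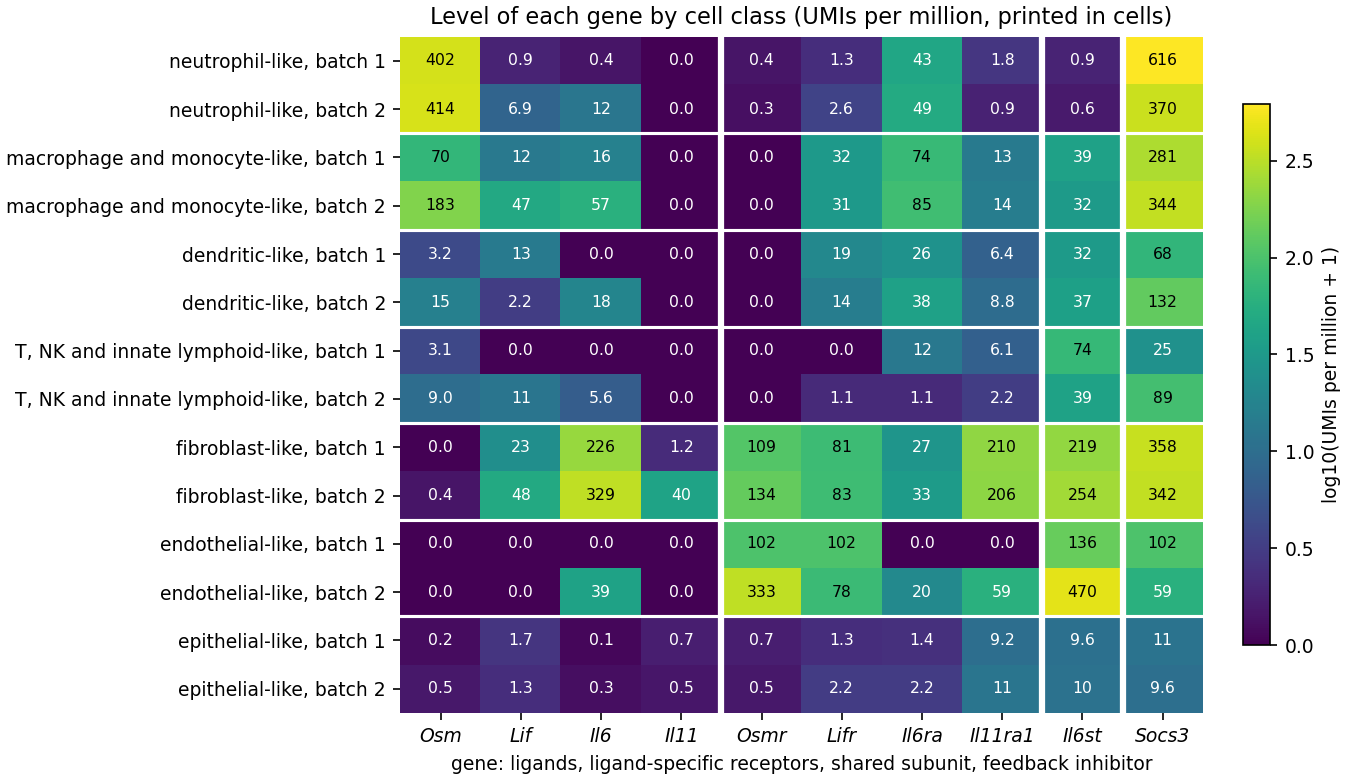
Level of each axis gene (columns, grouped by role) in 7 gated cell classes, with 1 row per class and batch; the number is the level in CPM and the colour its log10 after adding 1. Osm is bright in the neutrophil and macrophage rows and near 0 in fibroblast, endothelial and epithelial rows, while Osmr and Il6st are bright in the fibroblast and endothelial rows.

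Of the 1802 and 3621 Osm UMIs in kept cells, neutrophil-like cells held 50.4% and 39.5%, macrophage and monocyte-like cells 4.38% and 17.3%, and mixed droplets 41.6% and 37.6%. The mixed droplets that passed both the neutrophil and the epithelial gate had 60.2 and 57.5 Osm UMIs per 100 UMIs of Csf3r, the G-CSF receptor gene of neutrophils. Neutrophil-like cells had 58.8 and 56.5 per 100 and barcodes of at most 100 UMIs had 95.2 and 102. Per 100 UMIs of Cxcr2, another neutrophil receptor gene, the mixed droplets had 85.0 and 76.5 Osm UMIs and neutrophil-like cells 93.6 and 81.1. The barcodes of at most 100 UMIs had 152 and 228. Csf3r and Cxcr2 are both markers of the neutrophil gate. Droplets that passed it were thus picked partly for these UMIs, while the barcodes of at most 100 UMIs were not. The ratios of the gated droplets and of those barcodes are therefore not directly comparable.

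**Figure D2:**
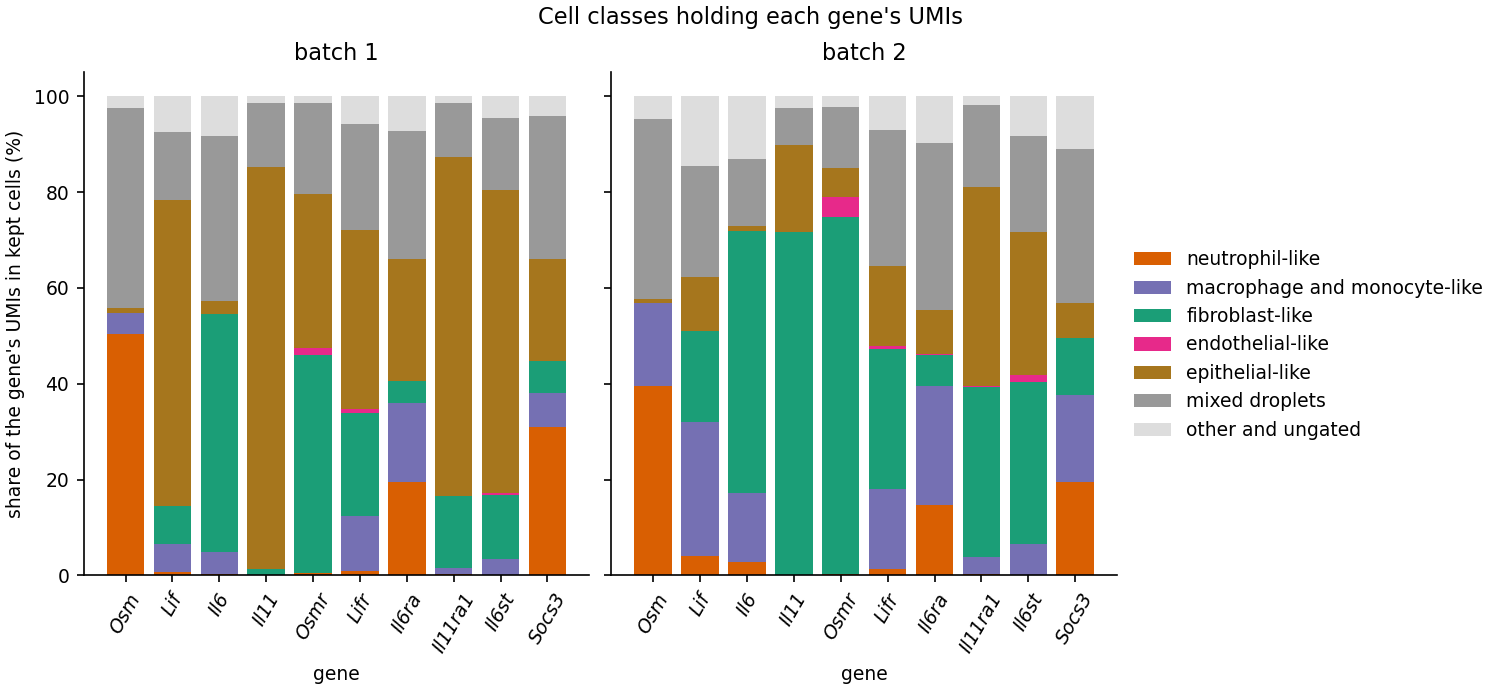
Share of each axis gene's UMIs, in percent of its UMIs in all kept cells, that each gated class held, for batch 1 (left) and batch 2 (right). Neutrophil-like cells hold 50.4% and mixed droplets 41.6% of Osm UMIs in batch 1, and fibroblast-like cells hold 45.5% of Osmr UMIs in batch 1 and 74.5% in batch 2.

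By label, Osm over all cells was 109 and 163 CPM under TG_DSS, 5.99 and 71.4 CPM under TG_WT, 0.131 and 2.13 CPM under Ctrl_DSS, and 2.00 and 0.888 CPM under Ctrl_WT. TG_DSS was the highest and the Ctrl labels the lowest in both batches, and TG_WT differed between the batches. Neutrophil-like cells were 48.1% and 38.8% of the cells labelled TG_DSS, 2.88% and 21.0% of TG_WT, 0.491% and 0.813% of Ctrl_DSS, and 2.82% and 0% of Ctrl_WT. The labels thus differed in how many neutrophil-like cells they held. Macrophage and monocyte-like cells also differed between the batches of TG_WT, at 4.22% and 17.2% of its cells. Of the 791 Osm UMIs of TG_WT in batch 2, they held 272 and neutrophil-like cells held 208. The part of cell makeup in the Osm of the labels was not tested.

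Within neutrophil-like cells the level of Osm did not separate the labels. It was 401 and 447 CPM under TG_DSS (599 and 510 cells) and 557 and 249 CPM under TG_WT (15 and 265 cells). The TG_DSS values lay between those of TG_WT, and the log2 fold change of 0.45 (SE 0.42) had an adjusted p of 0.9997 by edgeR's quasi-likelihood test. At most 5 neutrophil-like cells per batch carried any one Ctrl label, and no comparison with those labels could be made. Of the 10 axis genes 3 passed the filter on low counts (Osm, Socs3 and Il6ra), and 0 were called by edgeR or DESeq2, with 0 at an unadjusted p under 0.05. Over all 5018 genes 0.159% were called and 3.39% had an unadjusted p under 0.05. The 4 sums left 1 residual degree of freedom.

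In macrophage and monocyte-like cells Osm was 81.7 and 186 CPM under TG_DSS and 56.3 and 192 CPM under TG_WT. Under Ctrl_DSS it was 32.7 CPM in batch 2, where 20 cells gave 5 UMIs, and batch 1 had 6 cells and was left out of the fit. Under Ctrl_WT it was 24.6 CPM from 2 UMIs in 15 cells, and 0 of 13 cells had Osm in batch 2, where 3 UMIs would be 40.1 CPM. The values of TG_DSS and TG_WT overlapped. Those of the Ctrl labels, from at most 5 UMIs each, lay under them, and how many other genes show this order was not counted.

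The fitted log2 fold changes of Osm were 0.12 (SE 0.67) for TG_DSS over TG_WT, 2.43 (SE 1.07) for TG_DSS over Ctrl_DSS, 3.24 (SE 1.08) for TG_WT over Ctrl_WT and 0.93 (SE 1.46) for Ctrl_DSS over Ctrl_WT. None passed edgeR's quasi-likelihood test, with adjusted p-values between 0.89 and 1. Over all 3796 genes, 0%, 0%, 0.0263% and 0% were called in these comparisons, and 40, 210, 183 and 156 genes had an unadjusted p under 0.05. Of the 4 axis genes tested (Osm, Il6, Il6ra and Socs3), 0 were called in any of them by edgeR or DESeq2, while 0, 1, 2 and 0 had an unadjusted p under 0.05. Without the 22 cells labelled TG_WT in batch 1, Osm was called in TG_WT over Ctrl_WT at 3.84 (adjusted p = 5.2e-04), with adjusted p-values from 0.10 to 1 under the other 13 alternatives. TG_WT was then 1 sum, assumed to vary like the other groups, and 253 genes were called higher and 145 lower of 7255 tested.

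The makeup of this class differed between labels and, under TG_WT, as widely between the batches. Cells with at least 2 of the 3 C1q genes, which mark mature macrophages, were 52.1% and 39.7% of it under TG_DSS, 90.9% and 30.0% under TG_WT, 100% in both batches under Ctrl_DSS, and 86.7% and 84.6% under Ctrl_WT. C1q-negative cells with Ccr2 or Ly6c2, which mark monocytes, held Osm at 146 and 211 CPM, and C1q-positive cells at 41.0 and 145 CPM. Within C1q-positive cells Osm was 37.7 and 113 CPM under TG_DSS, 60.8 and 169 CPM under TG_WT, 32.7 CPM under Ctrl_DSS in batch 2, and 16.2 and 0 CPM under Ctrl_WT. The part of this makeup in the differences between labels was not tested.

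**Figure D3:**
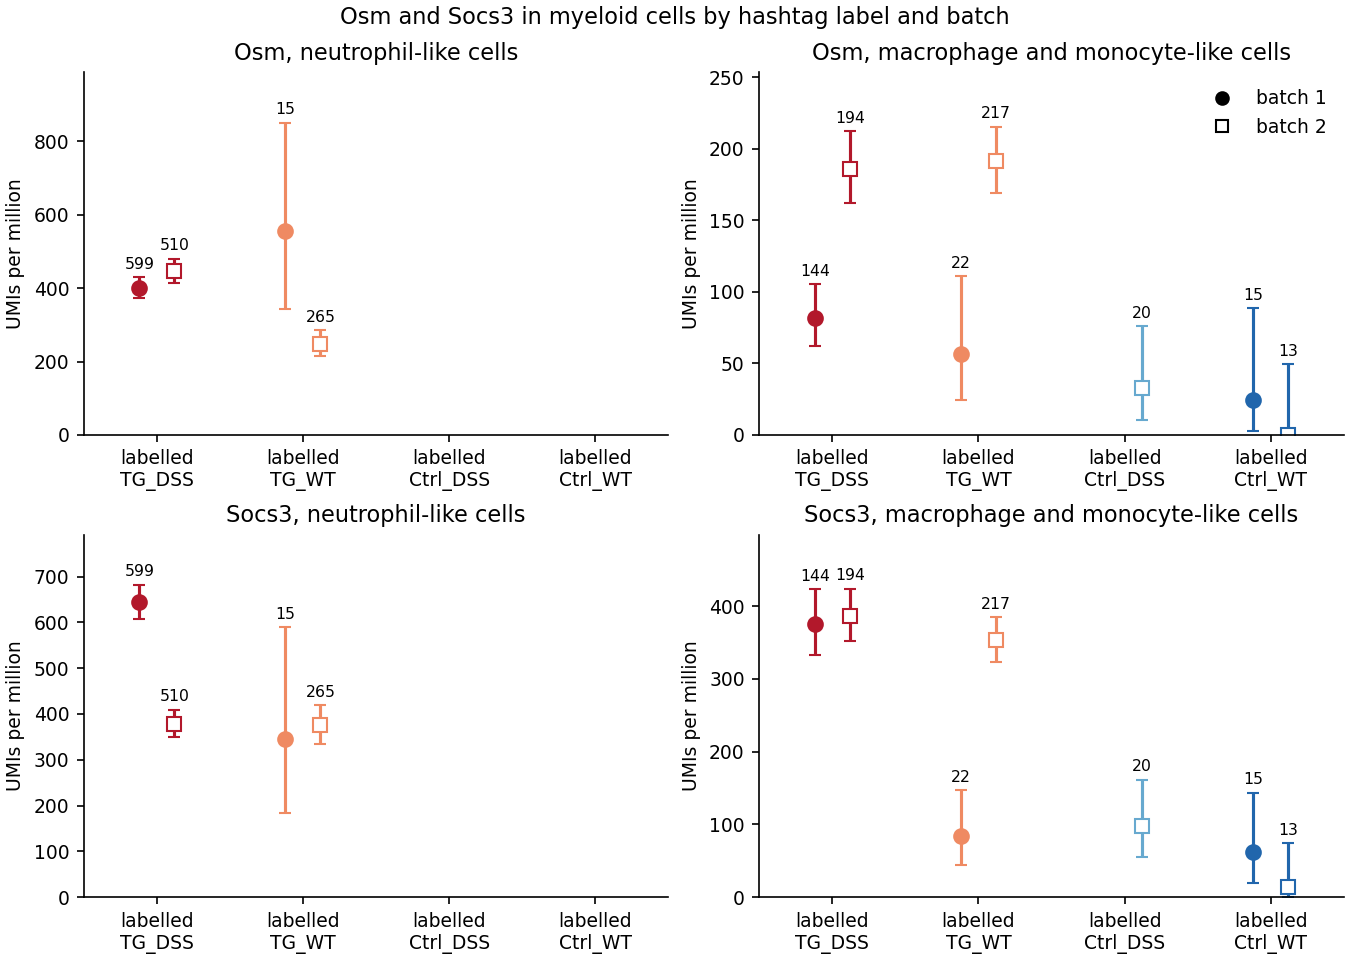
Osm (top) and Socs3 (bottom) in CPM in neutrophil-like (left) and macrophage and monocyte-like cells (right) by hashtag label and batch; bars are 95% exact Poisson intervals, which cover counting error only, numbers are cells, and sums under 10 cells are left out. In macrophage and monocyte-like cells Osm lies between 56.3 and 192 under the TG labels and at or under 32.7 under the Ctrl labels.

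Among the source and target classes Il6 was highest in fibroblast-like cells, in both batches. It was at 226 and 329 CPM in fibroblast-like cells, 0.442 and 11.6 CPM in neutrophil-like cells, 15.8 and 57.4 CPM in macrophage and monocyte-like cells, and 0.112 and 0.261 CPM in epithelial-like cells. Fibroblast-like cells were 2.07% and 5.18% of kept cells and held 49.6% and 54.5% of Il6 UMIs. Il6 rose in fibroblast-like over epithelial-like cells by 8.79 in log2 units (SE 0.56) with an adjusted p of 2e-14 by edgeR's quasi-likelihood test. In this class comparison, here and below, the fibroblast-like sums came only from TG_WT (81 and 68 cells) and from Ctrl_DSS in batch 2 (15 cells). The levels given by class also include the unlabelled cells. Lif was at 22.7 and 48.0 CPM in fibroblast-like cells, 12.3 and 47.2 CPM in macrophage and monocyte-like cells, and 1.71 and 1.31 CPM in epithelial-like cells, and rose by 3.68 (SE 0.54) in fibroblast-like over epithelial-like cells with an adjusted p of 1e-06 by edgeR. Il11, a cytokine known from activated fibroblasts, was at 1.19 and 40.1 CPM in fibroblast-like cells, where batch 1 had 1 UMI and batch 2 had 91, and it did not pass the filter of the class comparison. In batch 1 epithelial-like cells, 4812 of the 7156 kept cells, held 63 of the 75 Il11 UMIs, at 0.705 CPM. Barcodes of at most 100 UMIs held it at 0.819 CPM there, from 4 UMIs. No Il11 UMI was found in either myeloid class.

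Within fibroblast-like cells, the UMIs of these ligands lay in few cells. Lif was found in 7 of 148 and 20 of 335 of them. It was also found in 8 and 59 macrophage and monocyte-like and in 123 and 55 epithelial-like cells. The 10% of fibroblast-like cells with the most Il6 held 90.5% and 87.4% of its UMIs, and single cells reached 68 and 128 UMIs. The 91 Il11 UMIs of batch 2 came from 11 of 335 cells, with up to 33 in a cell, and 7 of those 11 cells also had Il6. By contrast the 10% with the most Osmr held 58.2% and 53.0% of Osmr, and for Il6st it was 39.3% and 43.8%.

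**Figure D4:**
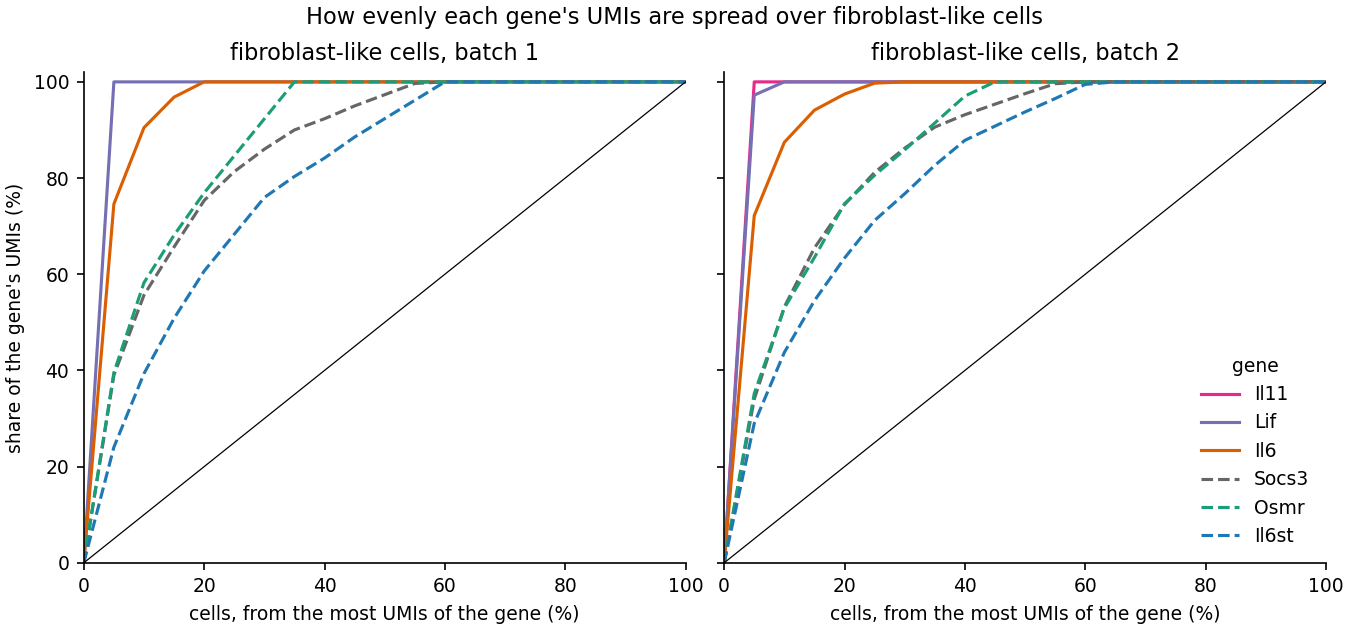
Cumulative share of a gene's UMIs (percent) against the share of fibroblast-like cells ranked by that gene's UMIs (percent), by batch; the thin diagonal is an even spread and Il11 is shown for batch 2 only. The ligand curves (solid) reach at least 87.4% of UMIs at 10% of cells, above the curves of Socs3, Osmr and Il6st (dashed). Lif and Il11 had UMIs in under 10% of cells, so their curves are at 100% there by detection alone.

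By label, fibroblast-like cells were 0 and 3 under TG_DSS, 81 and 68 under TG_WT, 0 and 15 under Ctrl_DSS, and 2 and 9 under Ctrl_WT, while 61 and 236 carried no label. No pair of labels had 10 cells on both sides with a residual degree of freedom, and no test was made. Il6 was 345 and 616 CPM under TG_WT, 135 CPM under Ctrl_DSS in batch 2 and 80.2 CPM under Ctrl_WT in batch 2. Lif was 34.9 and 101 CPM and Il11 2.18 and 94.3 CPM under TG_WT, and both were at 0 under Ctrl_DSS and Ctrl_WT in batch 2. The TG_WT values were the highest for the 3 ligands in batch 2, with 15 and 9 cells behind the Ctrl values. In unlabelled cells Il6 was 86.8 and 245 CPM.

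Macrophage and monocyte-like cells held less Il6 than fibroblast-like cells in both batches. Their Lif was lower in batch 1 and near the fibroblast-like level in batch 2. Their Il6 was 21.8 and 45.9 CPM under TG_DSS, 14.1 and 80.3 CPM under TG_WT, 0 CPM under Ctrl_DSS in batch 2, and 0 and 26.7 CPM, the second from 2 UMIs, under Ctrl_WT. Their Lif was 16.3 and 39.1 CPM under TG_DSS, 7.04 and 48.6 CPM under TG_WT, 6.53 CPM from 1 UMI under Ctrl_DSS in batch 2, and 0 CPM in both batches under Ctrl_WT. Batch 2 was the higher one for both ligands under both TG labels.

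Among the receptors, Osmr was a stromal and endothelial transcript. It was at 109 and 134 CPM in fibroblast-like cells, 102 and 333 CPM in endothelial-like cells (3 and 17 UMIs), and 0.716 and 0.502 CPM in epithelial-like cells. Neutrophil-like cells had 1 Osmr UMI in each batch, and 0 of 752 macrophage and monocyte-like cells had it, which limits the share of these cells with an Osmr UMI to 0.399% and not the share that express it. Fibroblast-like and endothelial-like cells did not keep one order of Osmr between the batches.

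Osmr rose in fibroblast-like over epithelial-like cells by 7.02 in log2 units (SE 0.57), with an adjusted p of 8.2e-11 by edgeR's quasi-likelihood test. In this comparison 18.5% of 10639 genes were called higher and 20.9% lower, and of the 9 axis genes tested 8 rose and 0 fell, with Osm not called. Without batch 2 the call of Il6ra, which rose by 2.89 (SE 0.54), was lost (adjusted p = 0.051, edgeR). The median of the 9 was 4.70, against -0.12 over all genes. The 3 genes most like Osmr over the 19 sums were Ebf3 (Pearson r 0.993), Galnt15 (r 0.993) and Jam3 (r 0.991).

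Lifr was at 81.2 and 83.2 CPM in fibroblast-like, 102 and 78.3 CPM in endothelial-like and 31.7 and 31.2 CPM in macrophage and monocyte-like cells, against 1.32 and 2.17 CPM in epithelial-like cells (fibroblast-like over epithelial-like 5.89, SE 0.43, adjusted p = 3.6e-13). Il6ra was at 43.4 and 49.5 CPM in neutrophil-like, 74.0 and 85.1 CPM in macrophage and monocyte-like, 27.5 and 33.0 CPM in fibroblast-like and 1.44 and 2.17 CPM in epithelial-like cells. Its direction in neutrophil-like over macrophage and monocyte-like cells depended on the scaling. Its log2 fold change was 0.18 (SE 0.32, adjusted p = 0.66, edgeR) with TMM, -0.12 (adjusted p = 0.84) by DESeq2 and -0.87 (SE 0.35, adjusted p = 0.032, edgeR) by library totals. Il11ra1 was at 210 and 206 CPM in fibroblast-like and 9.24 and 11 CPM in epithelial-like cells (log2 fold change 4.66, SE 0.31, adjusted p = 3.8e-14, edgeR). Il11ra1 has near-identical copies in the genome, 3 of which are listed as Il11ra2 with 0 UMIs and 1 as Gm13306 with 3, so its counts may include reads of a copy.

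Il6st, which every receptor of the axis needs, was highest in fibroblast-like and endothelial-like cells among the source and target classes. It was at 219 and 254 CPM in fibroblast-like, 136 and 470 CPM in endothelial-like and 9.60 and 10.3 CPM in epithelial-like cells, and rose in fibroblast-like over epithelial-like cells by 4.70 (SE 0.30, adjusted p = 7.6e-15, edgeR). In neutrophil-like cells it was at 0.885 and 0.579 CPM, 2 UMIs in each batch, against 38.7 and 32.1 CPM in macrophage and monocyte-like cells, a difference of -4.58 in log2 units (SE 0.56), with an adjusted p of 4.4e-08 by edgeR. Neutrophil-like cells thus held the highest Osm and next to no Il6st or Osmr.

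By label, Osmr in fibroblast-like cells was 116 and 109 CPM under TG_WT, 83.4 CPM under Ctrl_DSS in batch 2 and 128 CPM under Ctrl_WT in batch 2. Il6st in them was 210 and 276 CPM under TG_WT, 219 CPM under Ctrl_DSS and 160 CPM under Ctrl_WT in batch 2. Il6st was found in 76.5% and 74.8% of fibroblast-like cells with an Osmr UMI, against 50.5% and 50.5% of those without, with median depths of 7137 and 7162 UMIs against 4426 and 4456.5. The cells with Osmr were also the deeper ones, and the part of depth in this difference was not tested.

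Endothelial-like cells were too few per label and batch for the main class comparison. With all gated cells of a batch summed, labelled or not, 4 axis genes rose in endothelial-like over epithelial-like cells: Osmr by 7.65, Lifr by 4.75 and Il6st by 4.17 in log2 units, and Il6 from 2 UMIs, where 7.51% of 13082 genes were called higher by edgeR. In fibroblast-like over endothelial-like cells, Socs3 rose by 3.03, and Il6 and Il11ra1 rose over 2 and 3 endothelial-like UMIs, where 7.48% were called higher. Osmr, Il6st and Lifr were not called there, with log2 fold changes of -0.17, 0.31 and 0.75. These values lay under the median of all genes, which was 0.88 in that comparison. In endothelial-like over epithelial-like cells the median of all genes was -1.19.

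In epithelial-like cells the axis was low under every label. Il6st was 9.81 and 16.1 CPM under TG_DSS, 10.5 and 6.96 CPM under TG_WT, 12.3 and 11.1 CPM under Ctrl_DSS, and 9.02 and 9.58 CPM under Ctrl_WT, and the labels overlapped. Il11ra1 was 5.45 and 8.07 CPM under TG_DSS, 9.69 and 8.47 CPM under TG_WT, 12.8 and 15.7 CPM under Ctrl_DSS, and 10.0 and 9.58 CPM under Ctrl_WT. The 2 TG_DSS values, from 5 UMIs each, were the lowest and the 2 Ctrl_DSS values the highest of Il11ra1. Its log2 fold change in TG_DSS over Ctrl_DSS was -1.12 (SE 0.38, adjusted p = 0.23). Goblet-like cells, in which Il11ra1 was higher than in other epithelial-like cells, were 24.0% and 21.4% of these cells under TG_DSS, 31.7% and 26.5% under TG_WT, 33.3% and 32.5% under Ctrl_DSS, and 20.4% and 18.2% under Ctrl_WT. Without goblet-like cells the log2 fold change of Il11ra1 was -1.12 (SE 0.53, adjusted p = 0.35, edgeR). Lif in epithelial-like cells was 3.27 and 9.69 CPM under TG_DSS, 2.14 and 4.23 CPM under TG_WT, 0.882 and 0.915 CPM under Ctrl_DSS, and 2.50 and 0 CPM under Ctrl_WT. Its values under TG_DSS lay above those under Ctrl_DSS, by 2.70 in log2 units (SE 0.99) with an adjusted p of 0.25 by edgeR. Of the 5 axis genes tested in epithelial-like cells (Lif, Il6ra, Il11ra1, Il6st and Socs3), edgeR and DESeq2 called 0 in any comparison of labels. In TG_DSS over TG_WT, TG_DSS over Ctrl_DSS, TG_WT over Ctrl_WT and Ctrl_DSS over Ctrl_WT, 0, 2, 0 and 0 of them had an unadjusted p under 0.05 by edgeR, and 0.0264%, 0.308%, 0.0176% and 0.149% of 11374 genes were called. The difference between the effects of DSS and TG labels (TG_DSS minus TG_WT minus Ctrl_DSS plus Ctrl_WT), which is the same under both readings of the labels, gave 0 calls and 0 unadjusted p-values under 0.05 among axis genes in epithelial-like and in macrophage and monocyte-like cells. It called 0.0176% of all genes in epithelial-like and 0% in macrophage and monocyte-like cells. An unadjusted p under 0.05 was reached by 11.4% and 2.85% of all genes there.

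Whether epithelial-like cells of TG_DSS held Osm depended on how mixed droplets were treated. By the gate they had 1 and 2 Osm UMIs in 50 and 42 cells, and Osm did not pass the filter. When Leiden clusters named from the same markers defined the class, Osm was 20.4 and 56.6 CPM under TG_DSS, 0.161 and 5.43 CPM under TG_WT, 0.147 and 0.444 CPM under Ctrl_DSS, and 0.478 and 1.06 CPM under Ctrl_WT. It then rose in TG_DSS over Ctrl_DSS by 7.0 in log2 units (SE 0.74), with an adjusted p of 0.0074 by edgeR, together with Socs3 by 2.92 and Il6ra by 2.97, and 443 genes were called higher and 41 lower of 12196 tested. Of the 51 and 68 Osm UMIs of TG_DSS in those clusters, 45 and 68 were in droplets that passed both the epithelial and the neutrophil gate, 41 and 29 droplets in all. Those droplets held neutrophil markers at 124 and 382 per 10000 UMIs. TG_DSS cells that passed the epithelial gate alone held them at 1.41 and 2.36 per 10000. The gates use these same markers, so this difference follows from how both groups were defined.

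**Figure D5:**
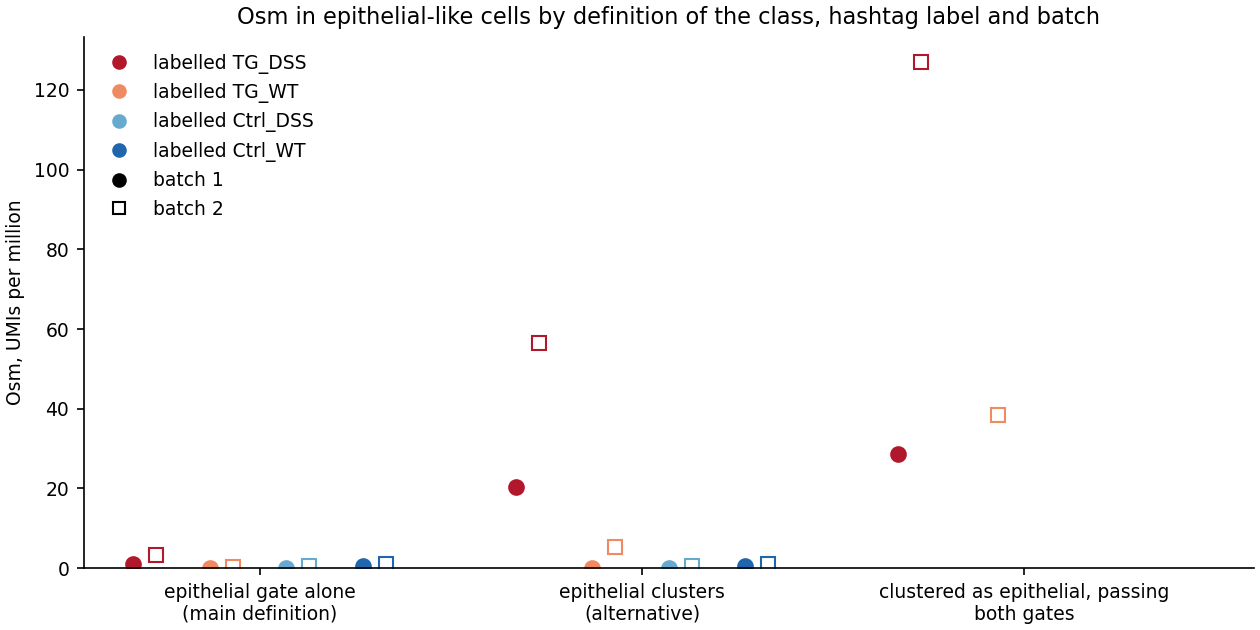
Osm in CPM in epithelial-like cells by definition of the class (3 blocks), hashtag label (colour) and batch (filled circle, batch 1, and open square, batch 2); sums under 10 cells are left out. Under the gate each value is at most 3.23, and TG_DSS reaches 20.4 and 56.6 under clusters and 28.6 and 127 in the droplets of those clusters that passed both gates.

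Socs3, the feedback inhibitor, was high in source and stromal classes. It was at 616 and 370 CPM in neutrophil-like, 281 and 344 CPM in macrophage and monocyte-like, 358 and 342 CPM in fibroblast-like, 102 and 58.7 CPM in endothelial-like and 10.7 and 9.56 CPM in epithelial-like cells. It rose in neutrophil-like over macrophage and monocyte-like cells by 1.66 (SE 0.38, adjusted p = 5.7e-04) and in fibroblast-like over epithelial-like cells by 4.98 (SE 0.46, adjusted p = 9e-11) by edgeR. The first of these calls was lost with library totals (0.68, SE 0.33, adjusted p = 0.073, edgeR), and in CPM batch 2 differed little, with 370 against 344 CPM. Under TG_DSS in batch 2 Socs3 was 378 CPM in neutrophil-like and 387 CPM in macrophage and monocyte-like cells. Socs3 in macrophage and monocyte-like cells was 376 and 387 CPM under TG_DSS, 84.4 and 353 CPM under TG_WT, 98.0 CPM under Ctrl_DSS in batch 2, and 61.5 and 13.4 CPM under Ctrl_WT. It was high in the 3 sums of TG labels that held over 100 cells and low in the other 4, and the same 3 sums held the highest Osm. Its log2 fold changes were 2.19 (SE 1.09, adjusted p = 0.94) in TG_DSS over Ctrl_DSS and 2.55 (SE 0.98, adjusted p = 0.91) in TG_WT over Ctrl_WT. Without the 22 cells labelled TG_WT in batch 1 the second was 3.76 (adjusted p = 3.2e-06, edgeR). In TG_DSS over TG_WT its log2 fold change was 0.86 (SE 0.76, adjusted p = 1, edgeR), 2.40 (adjusted p = 0.049) without the 217 cells labelled TG_WT in batch 2 and -0.15 (adjusted p = 1) without the 22 of batch 1. In each of these fits TG_WT was 1 sum, assumed to vary like the other groups, and without batch 2 of TG_WT 68 genes were called higher and 77 lower of 3514 in TG_DSS over TG_WT. In fibroblast-like cells it was 413 and 387 CPM under TG_WT, 219 CPM under Ctrl_DSS and 818 CPM under Ctrl_WT in batch 2.

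Other genes of the pathway were read from 4 lists. Of 12 genes of gp130 signalling, 5 rose and 0 fell in fibroblast-like over epithelial-like cells (median 0.80), among them the kinase Jak1 by 1.49 (SE 0.33, adjusted p = 3.4e-04) and Stat3 by 1.65 (SE 0.34, adjusted p = 1.8e-04). Of 18 STAT3 target genes 13 rose and 2 fell there (median 2.81), among them the acute-phase gene Hp by 7.80 (SE 0.66, adjusted p = 8.7e-12) and the transcription factor gene Cebpd by 4.67 (SE 0.41, adjusted p = 1.9e-11). Of 12 tested of 14 stromal genes known to respond to oncostatin M, 11 rose and 0 fell (median 7.44), led by the chemokine genes Ccl7 by 10.88 (SE 0.54, adjusted p = 5.1e-17) and Ccl2 by 10.01 (SE 0.55, adjusted p = 2.8e-16), and by the surface glycoprotein gene Pdpn by 9.50 (SE 0.47, adjusted p = 6.9e-17). The chemokine gene Ccl11 was among the 11, with 3 UMIs in the epithelial-like sums. Many of these are known stromal genes, and the counts stand beside 18.5% called higher over all genes and a median of -0.12.

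In neutrophil-like over macrophage and monocyte-like cells, scaled with TMM, 5 gp130 signalling genes rose and 1 fell (median 0.34), with Stat3 at 1.87 (SE 0.31, adjusted p = 7.5e-06). Of the STAT3 targets 13 rose and 3 fell (median 1.94), among them Lcn2 by 7.29 (SE 0.55) and Lrg1 by 5.58 (SE 0.46), both also known as genes of neutrophil granules. Of the stromal list 3 rose and 4 fell (median 0.24), with Ccl2 lower by -4.69 (SE 0.56) and the adhesion gene Icam1 higher by 2.43 (SE 0.46). Of 2 tested of 12 other ligands and receptors of the family, 1 rose, Ebi3, a subunit of IL-27 and IL-35, by 3.16 (SE 0.34, adjusted p = 6.4e-09, edgeR), and 0 of 2 passed in fibroblast-like over epithelial-like cells. With library totals 2 gp130 signalling genes rose and 6 fell, Stat3 being higher by 0.95 (SE 0.31, adjusted p = 0.010, edgeR). Under that scaling 9 STAT3 targets rose and 5 fell, and 2 genes of the stromal list rose and 5 fell. Over all 10639 genes, 2561 rose and 2968 fell with TMM, and 1144 rose and 5750 fell with library totals.

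Between labels, 1 list gene passed in the 11 comparisons, the differences of effects included. The chemokine gene Cxcl1 rose in neutrophil-like cells of TG_DSS over TG_WT by 2.19 (SE 0.47, adjusted p = 0.0059, edgeR), 1 of 5 stromal list genes tested there. This fit had 1 residual degree of freedom, and the call was lost by DESeq2 (2.47, adjusted p = 0.9998) and with the highest-tag rule (1.89, adjusted p = 0.075, edgeR), while the other 5 alternatives kept it. Of 16 STAT3 targets tested in epithelial-like cells of TG_DSS over Ctrl_DSS, 13 had a positive log2 fold change, 9 had an unadjusted p under 0.05 and 0 passed (median 0.74, against -0.02 over all genes). Of all 11374 genes 1710 had an unadjusted p under 0.05 there. Socs3 in these cells was 12.0 and 16.1 CPM under TG_DSS, against 6.76 and 5.49 CPM under Ctrl_DSS, which differed by 1.16 in log2 units (SE 0.53) with an adjusted p of 0.35 by edgeR. Several of these targets are also neutrophil genes, and the 12 neutrophil markers together were 1.41 and 2.36 per 10000 UMIs under TG_DSS, against 0.767 and 0.831 per 10000 under Ctrl_DSS. Their part in the result was not tested.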

How the data were processed

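The deposited values are raw UMI counts per barcode, made with Cell Ranger 7.0.0 on mm10 according to the submitters' processing notes, with hashtag counts as further features. Barcodes were called cells above a UMI limit, or from 500 UMIs where their profile departed from that of barcodes of at most 100 UMIs (10000 draws, adjusted p at most 0.01). Cells needed 250 genes and at most 25% mitochondrial UMIs. A 2-component mixture per batch and hashtag called labels. Cells over several thresholds, taken as doublets, and cells without a label were left out of the sums per label and the tests on them. Levels, shares, ratios and correlations by class alone kept both, as did the sums of all gated cells of a batch. No other doublet caller was run. Classes needed a minimum of distinct markers, set from 3 to 6 by list, and droplets passing several gates were set apart. The gate limits were set after the data were seen. At the limit of its own gate lay 54 neutrophil-like, 163 macrophage and monocyte-like, 18 fibroblast-like, 2 endothelial-like and 171 epithelial-like cells.

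Counts were summed per class, label and batch (10 cells or more) and tested with edgeR 4.0.16 (TMM, filterByExpr, label and batch as terms, or class and label-by-batch, Benjamini-Hochberg over all genes tested). SE is the fold change divided by the root of F. Same-numbered libraries are the same pooled batch per the labels, so batch is a block. DESeq2 1.42.0, no filter, no block, other class and hashtag calls, a stricter gate, a 10% mitochondrial limit, 20 cells per sum, leaving out each sum or, between classes, each batch, and, added later, library totals without TMM between classes were alternatives. The steps were tested on simulated data. Named were the 10 members, from each list up to 4 genes of smallest p past the threshold, the 3 genes most like Osm and Osmr, and Jup. Lilrb4a and the others were ranked among 11090 genes. Thinning kept cells of at least 1000 UMIs. Intervals are 95% exact Poisson and cover counting error only. Nothing says that the batches came from separate animals, so p-values measure the spread between these sums, which may be technical. The members, lists and tests were chosen with earlier results of these data known.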

Additional observations from a re-analysis of the deposited data

How the results depend on the processing

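Over 66 axis-gene results and 784 recomputed values, 12 calls were lost, 5 were gained, and 63 values changed sign with neither value past the threshold. In neutrophil-like over macrophage and monocyte-like cells Il6ra turned to -0.87 (adjusted p = 0.032, edgeR) with library totals in place of TMM, an alternative chosen after seeing the data, and was not called by the other alternatives. The count of axis genes called in TG_DSS over Ctrl_DSS in epithelial-like cells moved to 2 of the 5 tested genes with Leiden clusters (Socs3 and Il6ra, with Osm newly tested and called). Leaving out each sum in turn gave 0 to 1 in TG_DSS over TG_WT and 0 to 2 in TG_WT over Ctrl_WT in macrophage and monocyte-like cells. Leaving out each batch gave 5 in neutrophil-like over macrophage and monocyte-like cells and 7 to 8 in fibroblast-like over epithelial-like cells. The cause was not tested. The mean share of cells with Osm was 50.3% unthinned and 17.2% at 500 UMIs in neutrophil-like cells, and 25.0% unthinned in macrophage and monocyte-like cells.

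With no replicate block, the axis genes called in the 11 label comparisons stayed at 0, and those in neutrophil-like over macrophage and monocyte-like cells fell to 5 as Lif (adjusted p = 0.33) and Il6 (adjusted p = 0.35) were lost. Over all genes, calls without the block were 13 against 8 in neutrophil-like cells, and in epithelial-like cells 20 against 35 in TG_DSS over Ctrl_DSS, 4 against 17 in Ctrl_DSS over Ctrl_WT, 1 against 3 in TG_DSS over TG_WT and 0 against 2 in TG_WT over Ctrl_WT. DESeq2 called 5 axis genes in neutrophil-like over macrophage and monocyte-like cells, where its scaling set the median of all genes at -0.45, against -0.17 by TMM. Calls over all genes varied more. They were 1 to 13 in neutrophil-like cells against 8, 0 to 826 in the epithelial-like comparisons against 2 to 35, and 0 to 398 in the macrophage and monocyte-like comparisons against 0 to 1. Leaving out a sum, or asking for 20 cells, left no residual degrees of freedom in neutrophil-like cells and was not run there. Depth limits the rare genes most: 3 UMIs in the smallest label sum of macrophage and monocyte-like cells are 40.1 CPM, and Il11, Lif and Osmr were not tested there.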

Other observations

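Other classes carried parts of the axis. Il6st in T, NK and innate lymphoid-like cells was 73.6 and 39.3 CPM (83 and 191 cells), against 38.7 and 32.1 CPM in macrophage and monocyte-like cells, and in batch 2 its 95% Poisson interval, 27.4 to 54.7 CPM, held the macrophage and monocyte-like level. Osmr was at 0 UMIs in the lymphoid-like cells. Dendritic-like cells held Il6st at 32.2 and 37.4 CPM, Il6ra at 25.7 and 38.5 CPM and Lifr at 19.3 and 14.3 CPM, with Osm at 3.22 and 15.4 CPM. Plasma-like cells of batch 2 had Il6st in 15 of 55 cells and 28.7 CPM. Mast-like cells were few, 5 and 14, and held both Il6, at 531 and 83.3 CPM from 12 and 5 UMIs, and Osm, at 88.6 and 133 CPM from 2 and 8 UMIs. B-like cells had 0 and 1 Osm UMIs in 23 and 19 cells.

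In epithelial-like cells the axis genes stood at different shares of their level in barcodes of at most 100 UMIs. Il11ra1 was at 105% and 98.8% of that level and Il6st at 95.7% and 71.1%, Socs3 at 26.2% and 16.0%, Il6 at 5.46% and 2.14% and Osm at 1.38% and 1.57%.

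Cells with several hashtags, left out of all comparisons of labels, held 13.9% of Osm UMIs in batch 1 and 36.0% in batch 2, as 3.72% and 10.8% of kept cells. In goblet-like cells, with at least 5 goblet markers, Il11ra1 was 14.1 and 16.5 CPM, against 7.90 and 9.03 CPM in other epithelial-like cells.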
